A study of Mus musculus with 3 samples.

Results

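The genes described here encode the machinery that docks synaptic vesicles, primes them and fuses them with the presynaptic membrane. They were chosen by symbol: the synaptotagmins, syntaxins, VAMPs, complexins, synapsins 1 to 3, Sv2a, Sv2b and Sv2c, and the numbered Snap, Stxbp and Rims genes. This gave 65 of 28001 features. Expression was measured cell by cell in nucleus accumbens tissue. The mice, Thy1::ChR2, carry channelrhodopsin under a Thy1 transgene, and cells were labelled with the FLiCRE calcium recorder while ChR2 was stimulated with light. The tissue was a coronal dissection of 400 um. The 3 samples form 1 group, with no unstimulated control, so comparisons were made between cell classes within libraries. Nothing in the labels says whether the samples are separate animals. The p-values therefore measure how far class differences varied across these libraries, with an error shared by all classes fitted. That spread may be technical.

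In neurons, the vesicle SNARE VAMP2 (synaptobrevin) zips with a syntaxin and SNAP-25 on the plasma membrane, and complexins assist and clamp this complex. Synaptotagmins such as Syt1 sense calcium and trigger fusion, RIM proteins organise the active zone, synapsins tether the vesicle pool, and SV2 proteins are vesicle membrane glycoproteins. Paralogues such as SNAP-23, VAMP3, VAMP8, Munc18c (Stxbp3) and syntaxin-4 serve fusion outside the synapse. Snap91 shares the symbol pattern but encodes a clathrin adaptor, not a SNARE.

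The 3 libraries held 2717, 6627 and 2281 cells, of which 10291 cells were kept, with 2868822 to 15625072 UMIs per library. A UMI is a tag that counts each RNA molecule once. Cells were assigned to classes by marker genes, none of which is among the 65 members, and UMIs were summed per library and class and given as CPM, the UMIs of a gene scaled to the same total in every sum. Gating gave 1766 D1 spiny, 1203 D2 spiny, 280 Tshz1-Pcdh8, 253 glutamatergic, 52 Sst-Npy and 35 Pvalb neurons. It also gave 794 astrocytes, 1185 oligodendrocytes, 65 oligodendrocyte precursors (OPCs) and 233 microglia. Sst-Npy sums were used from 2 libraries, with 33 and 10 cells, and the Pvalb sum from 1 library, with 21 cells. The D2 gate rested on Adora2a (1067 CPM), Gpr6 (259 CPM) and Penk (8009 CPM), because Drd2 itself was at 2.41 CPM there. Penk was also at 669 CPM in D1 and 2302 CPM in Tshz1-Pcdh8 neurons. Libraries shared 13, 7 and 22 cell barcodes in pairs. Free RNA was gauged with 7 spiny neuron genes that no gate uses. Their level in astrocytes, oligodendrocytes, OPCs and microglia was on average 3.27% to 5.47% of the spiny level, and in library 2 it was 6.86% to 12.6%.

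Upstream sequences are shown for 4 members whose levels differed among neuron classes, chosen after their values were seen: Syn1 and Stx1a, higher in glutamatergic neurons, and the paralogues Cplx1 and Cplx2. Each is the 250 bases before the annotated start, from RefSeq on GRCm38.p6, read 5′ to 3′ on the gene's strand. Windows were found for 49 of the 65 members, 64 in all since some genes have several starts. Capitals mark matches on either strand to TGACGTCA (the cyclic AMP response element), TTCAGCACC (the left part of the RE1 element), GGGCGG (a GC box) or CACGTG (an E-box). These motifs were in 1.55%, 0.301%, 32.7% and 6.02% of all 32851 such windows.
Syn1, chrX:20920919-20921168, minus strand: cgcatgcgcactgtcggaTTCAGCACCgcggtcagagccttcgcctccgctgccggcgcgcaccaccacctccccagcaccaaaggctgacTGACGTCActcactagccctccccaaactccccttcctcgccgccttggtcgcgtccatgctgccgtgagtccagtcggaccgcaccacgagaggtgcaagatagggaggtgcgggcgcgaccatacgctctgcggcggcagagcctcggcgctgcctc
Stx1a, chr5:135023232-135023481, plus strand: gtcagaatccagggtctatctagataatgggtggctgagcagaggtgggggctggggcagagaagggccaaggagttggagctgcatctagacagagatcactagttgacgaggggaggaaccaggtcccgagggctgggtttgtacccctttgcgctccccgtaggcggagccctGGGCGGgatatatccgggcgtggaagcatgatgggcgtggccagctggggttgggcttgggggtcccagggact
Cplx1, chr5:108550028-108550277, minus strand: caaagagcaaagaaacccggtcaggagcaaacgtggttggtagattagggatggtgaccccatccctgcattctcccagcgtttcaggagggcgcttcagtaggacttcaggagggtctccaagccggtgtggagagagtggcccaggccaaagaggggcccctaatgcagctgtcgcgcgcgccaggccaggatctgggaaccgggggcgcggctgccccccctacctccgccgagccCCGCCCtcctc
Cplx2, chr13:54302306-54302555, plus strand: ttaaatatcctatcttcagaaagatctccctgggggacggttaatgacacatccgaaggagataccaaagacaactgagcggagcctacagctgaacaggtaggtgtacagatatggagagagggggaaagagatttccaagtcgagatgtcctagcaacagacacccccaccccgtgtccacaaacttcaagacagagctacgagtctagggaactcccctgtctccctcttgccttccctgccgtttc
The Syn1 window held the cyclic AMP element and the RE1 part, the Stx1a and Cplx1 windows a GC box each, and the Cplx2 window none of the 4 motifs. Among members with a window, the RE1 part was found in Syn1 alone and the cyclic AMP element in Syn1 and Stxbp3. A match describes letters and is not evidence of a bound factor.

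**Figure D1:**
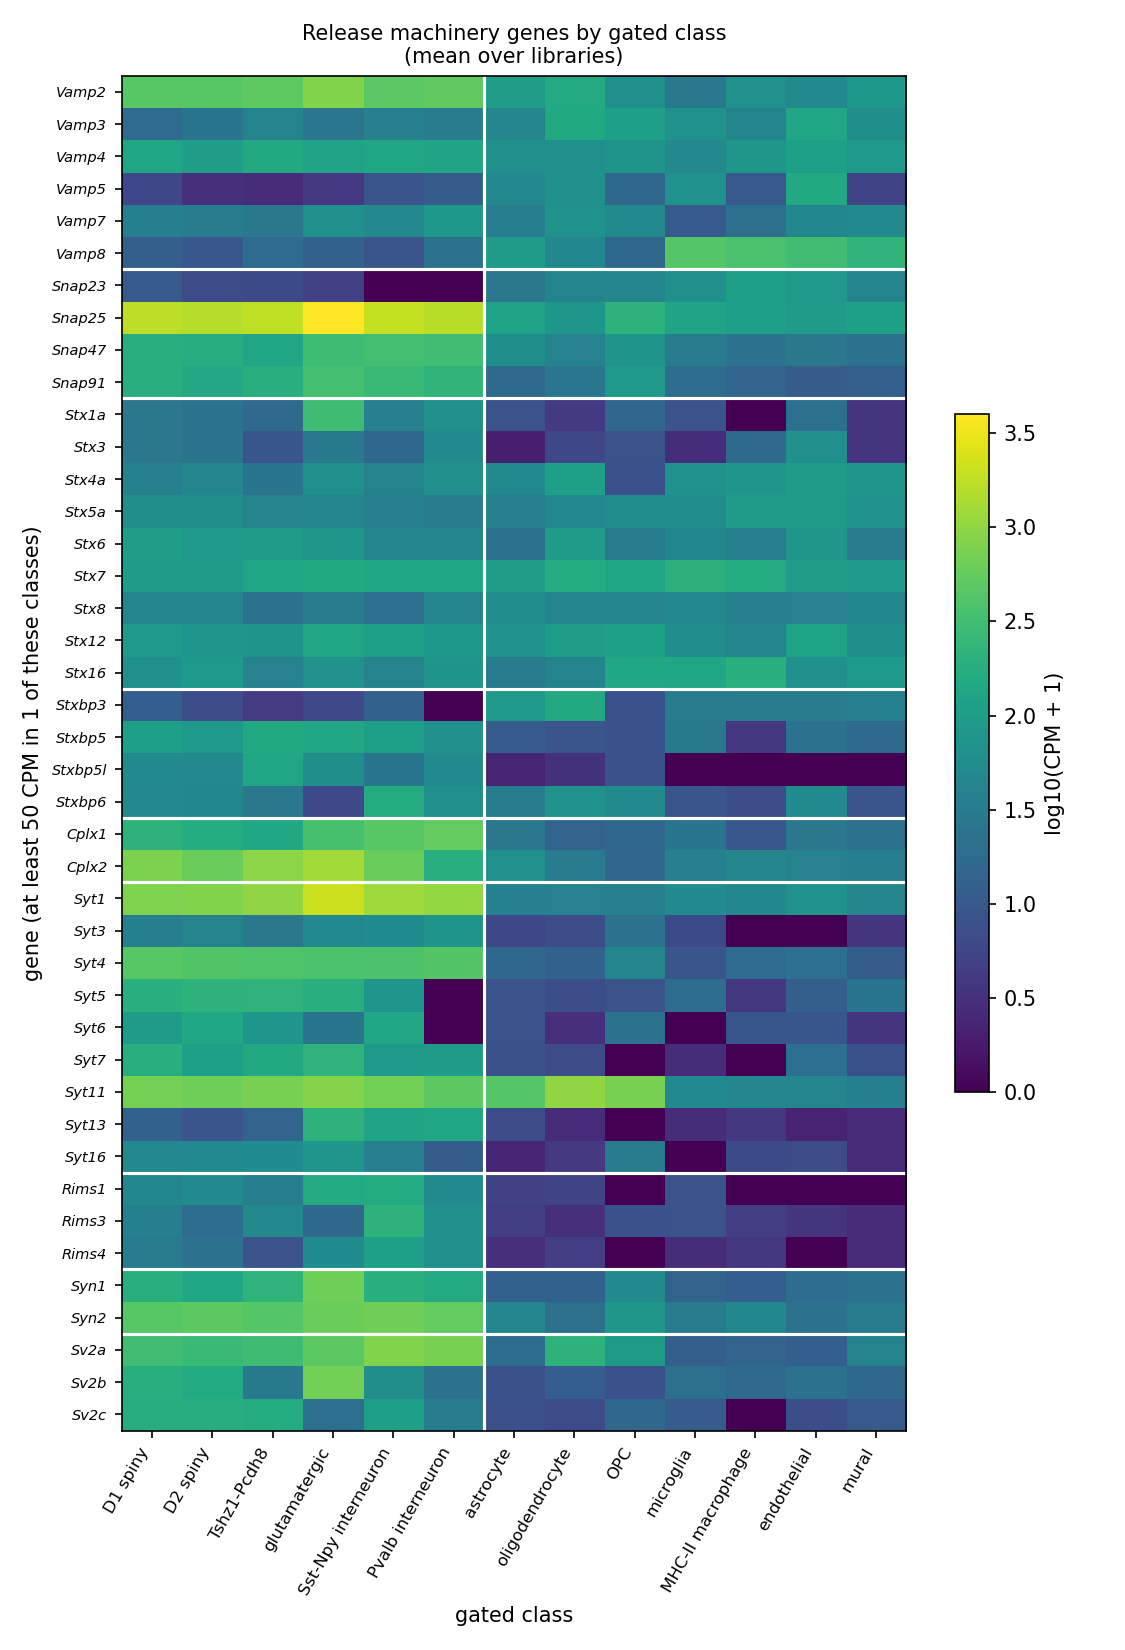
Mean level of release machinery genes (rows) in gated cell classes (columns), as log10(CPM + 1), for genes that reach 50 CPM in at least 1 of the classes shown. Snap25 and Syt1 are bright in the 6 neuron columns, while Stx1a, Sv2b and Sv2c are dim in some of them. Vamp3, Vamp8, Snap23 and Stxbp3 are each brightest in a non-neuronal column, but Vamp8 and Stxbp3 are low in OPCs.

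The core fusion genes were far above glial levels in spiny neurons, the projection neurons of the accumbens. Snap25 stood at 1394, 1837 and 2004 CPM in D1 neurons of libraries 1 to 3, and at 25, 250.2 and 72.3 CPM in astrocytes. Syt1, the fast calcium sensor, was at 773, 673 and 970 CPM in D1 neurons and at 8.77, 73.4 and 33.0 CPM in oligodendrocytes. The groups did not overlap for either gene, and glial values were highest in library 2, where the spiny reference genes were also highest. The part of free RNA in the glial values was not tested. Of the 55 members that passed the low-count filter, 34 were higher in spiny neurons than in the mean of the 4 glial classes, where 32.8% of all genes tested were higher, and 6 were lower, where 17.1% of all genes were (edgeR, adjusted p under 0.05). The members' median log2 difference was 2.01, against 0.25 for all genes.

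Snap25 was higher in spiny neurons by 3.79 ± 0.31 on the log2 scale (SE, adjusted p = 4.87e-12), and by 4.72 without library 2. Syt1 was higher by 4.19 ± 0.30 (adjusted p = 3.00e-16), and by 5.51 without library 2. Complexin genes, which clamp and promote fusion, followed: Cplx2 by 3.96 ± 0.29 (adjusted p = 3.05e-17; 5.12 without library 2) and Cplx1 by 3.03 ± 0.29 (adjusted p = 6.41e-17; 4.68 without library 2). Syt4, a synaptotagmin of dense-core and postsynaptic vesicles, was higher by 4.37 ± 0.25 (adjusted p = 7.81e-34; 6.41 without library 2). Vamp2 differed less, by 2.29 ± 0.22 (adjusted p = 1.45e-18), with 92.4, 115 and 94.0 CPM in astrocytes against 533, 357 and 478 CPM in D1 neurons. Syt7, the slow calcium sensor, was at 178, 177 and 184 CPM in D1 neurons. Syt7, Syt6, Syt12 and Stxbp5l had the largest fitted differences beside Syt4 and Syt1. Each had 0 UMIs in at least 1 glial class, so the fitted differences depend on the prior count and are not given.

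The 6 members lower in spiny neurons were Snap23, Vamp3, Vamp5, Vamp8, Stxbp3 and Stx7. Snap23, the widely expressed relative of Snap25, was at 12.4, 9.62 and 6 CPM in D1 neurons and at 32.9, 46.1 and 44.3 CPM in oligodendrocytes, and was lower in spiny neurons, with a log2 difference of -2.91 ± 0.37 (SE, adjusted p = 7.72e-12). Vamp3 was lower, with a log2 difference of -2.30 ± 0.27 (adjusted p = 3.13e-13). Vamp8, an endosomal and secretory SNARE, was lower, with a log2 difference of -2.97 ± 0.59 (adjusted p = 5.97e-06), a call lost without library 2 (-2.58, adjusted p = 1) and with the stricter gate. The calls of Vamp5 and Stx7 were likewise lost without library 2, and that of Stxbp3 without library 3 (-1.80, adjusted p = 1).

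D1 and D2 spiny neurons, the direct- and indirect-pathway types, are the projection neuron types of the accumbens. No member passed the test between them (edgeR, 0 higher and 0 lower), where 0.328% of all genes were higher in D1 and 0.182% lower. At an unadjusted p under 0.05 edgeR gave 2 of 55 members, beside 2.77% of all genes, and DESeq2 gave 1, beside 1.5%. The count of members is thus near that of all genes. DESeq2 had 50% of all its calls higher in D1, against 64.3% in edgeR. Syt7 was at 98.4, 106 and 128 CPM in D2 neurons, below the D1 range, a log2 difference of 0.67 ± 0.29 (SE, adjusted p = 1). Rims3, a short RIM, was at 37.2, 39.5 and 27.6 CPM in D1 and at 18.9, 23.7 and 14.7 CPM in D2 neurons, a difference of 0.79 ± 0.37 (adjusted p = 1). The levels did not overlap for either gene. When only the D1 and D2 sums were fitted, Syt7 (adjusted p = 1.03e-05) and Rims3 (adjusted p = 0.0176) passed as higher and Syt6 as lower (-0.62, adjusted p = 0.000228). That fit called 3 of the 48 members it tested, beside 3.33% of all genes, against 0.511% of all genes in the fit over all classes. At an unadjusted p under 0.05 it gave 8 of the 48 members, beside 11.1% of all genes. Syt6 was at 112, 85.7 and 87.7 CPM in D1 and at 136, 126 and 157 CPM in D2 neurons.

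Among 37 further presynaptic genes listed with the members, 2 were higher and 1 lower in D1 neurons, against 0.328% and 0.182% of all genes. The vesicle GTPase gene Rab3b was higher in D1 neurons, by 1.54 ± 0.37 (log2, SE, adjusted p = 0.0114). The adhesion gene Nrxn2 was lower, with a log2 difference of -1.57 ± 0.29 (adjusted p = 0.000118).

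Glutamatergic neurons, gated by Slc17a7 and other excitatory markers, differed from spiny neurons in both level and paralogue use. Of the 55 members 17 were higher and 3 lower, against 8.29% and 6.22% of all genes. Syt13, an atypical synaptotagmin, was at 263, 220 and 158 CPM in glutamatergic neurons and at 0, 18.2 and 18 CPM in D1 neurons. It was higher by 4.01 ± 0.31 (log2, SE, adjusted p = 1.89e-23). Stx1a, a target SNARE, was at 366, 280.5 and 251 CPM in glutamatergic neurons against 16.5, 35.0 and 26.4 CPM in D1 neurons. It was higher by 3.47 ± 0.27 (adjusted p = 1.10e-23). The ranges did not overlap. Cplx2 and Syn2 did not pass the test.

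Sv2b, an SV2 paralogue, was at 825, 592 and 656 CPM in glutamatergic neurons and at 207, 138 and 204 CPM in D1 neurons, and was higher by 1.98 ± 0.28 (adjusted p = 7.42e-08). Sv2c went the other way, with 9.38, 26.0 and 22.6 CPM against 145, 186 and 192 CPM, a log2 difference of -3.06 ± 0.37 (adjusted p = 3.55e-12). Rims1, an active zone scaffold, was higher by 1.78 ± 0.27 (adjusted p = 1.55e-08). Syn1 was higher by 1.75 ± 0.24 (adjusted p = 9.34e-10), with 1284 CPM in library 1 and 244 and 411 CPM in libraries 2 and 3. Vamp1 was higher by 1.38 ± 0.43 (adjusted p = 0.0159), a call lost with DESeq2 and without the library block (adjusted p up to 0.0842). Stxbp6 (amisyn), which binds SNAREs in place of VAMP2, was lower, with a log2 difference of -2.83 ± 0.46 (adjusted p = 1.67e-07; -3.68 without library 2). Syt6 was lower, with a log2 difference of -3.47 ± 0.54 (adjusted p = 1.41e-06), at 65.6, 5.19 and 1.89 CPM, and by -4.82 without library 1 and -2.59 without library 3. Syt2, a fast sensor not among the 55 tested, had 0 UMIs in glutamatergic neurons and was at least 11.1-fold lower than in spiny neurons (27.4 CPM), taking 3 counts over the group as the limit of a count of 0.

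The abundant fusion genes were also higher there, with smaller folds. Snap25 was at 2869, 4271 and 4738 CPM, above all D1 and D2 values, by 1.17 ± 0.37 (log2, adjusted p = 0.0288). The call was lost without library 1 (1.35, adjusted p = 0.116), without the library block and with DESeq2. It was also lost among cells of at least 1000 UMIs (1.20, adjusted p = 0.0603) and with at least 25 cells per sum. Syt1 was higher by 1.28 ± 0.31 (adjusted p = 0.00199), lost with DESeq2 and without the block (adjusted p up to 0.0864). Vamp2 (0.80 ± 0.23, adjusted p = 0.00718) lost its call without the library block and without library 3 (0.83, adjusted p = 0.151). Cplx1 was higher by 0.89 ± 0.27 (adjusted p = 0.0119) but lower in library 1 (169 CPM against 232 CPM in D1 neurons), and without library 3 its difference was 0.38 (adjusted p = 0.759). The calls of Rims4, Sv2a, Stx12, Snap47, Snap91 and Vamp7, were each lost without library 1, 2 or 3. Without library 3 the members called fell from 20 to 12. The summed level of all 65 members was 17898, 14700 and 17138 CPM in glutamatergic and 9271, 8801 and 10134 CPM in D1 neurons. The 7 spiny reference genes, summed, were at 6.41%, 27.7% and 19.1% of the spiny level in the glutamatergic class. The genes differed: Arpp21 had the highest mean there, 888 CPM against 2897 CPM in D1 neurons. Rgs9 had the lowest, 28.3 CPM against 533 CPM in D1 neurons. The part of free spiny RNA in the differences between glutamatergic and spiny neurons was not tested.

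Of the 37 further presynaptic genes, 20 were higher and 4 lower in glutamatergic neurons, against 8.29% and 6.22% of all genes. Rph3a, a Rab3 effector, was at 281, 170 and 162 CPM against 16.5, 30.2 and 21.6 CPM in D1 neurons (3.07 ± 0.28, adjusted p = 6.57e-19). The priming gene Cadps2 (3.57 ± 0.49, adjusted p = 6.69e-10) and the calcium sensor Doc2a (3.31 ± 0.48, adjusted p = 4.30e-09) were higher, while its paralogue Doc2b was lower (-2.41 ± 0.42, adjusted p = 1.37e-06).

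**Figure D2:**
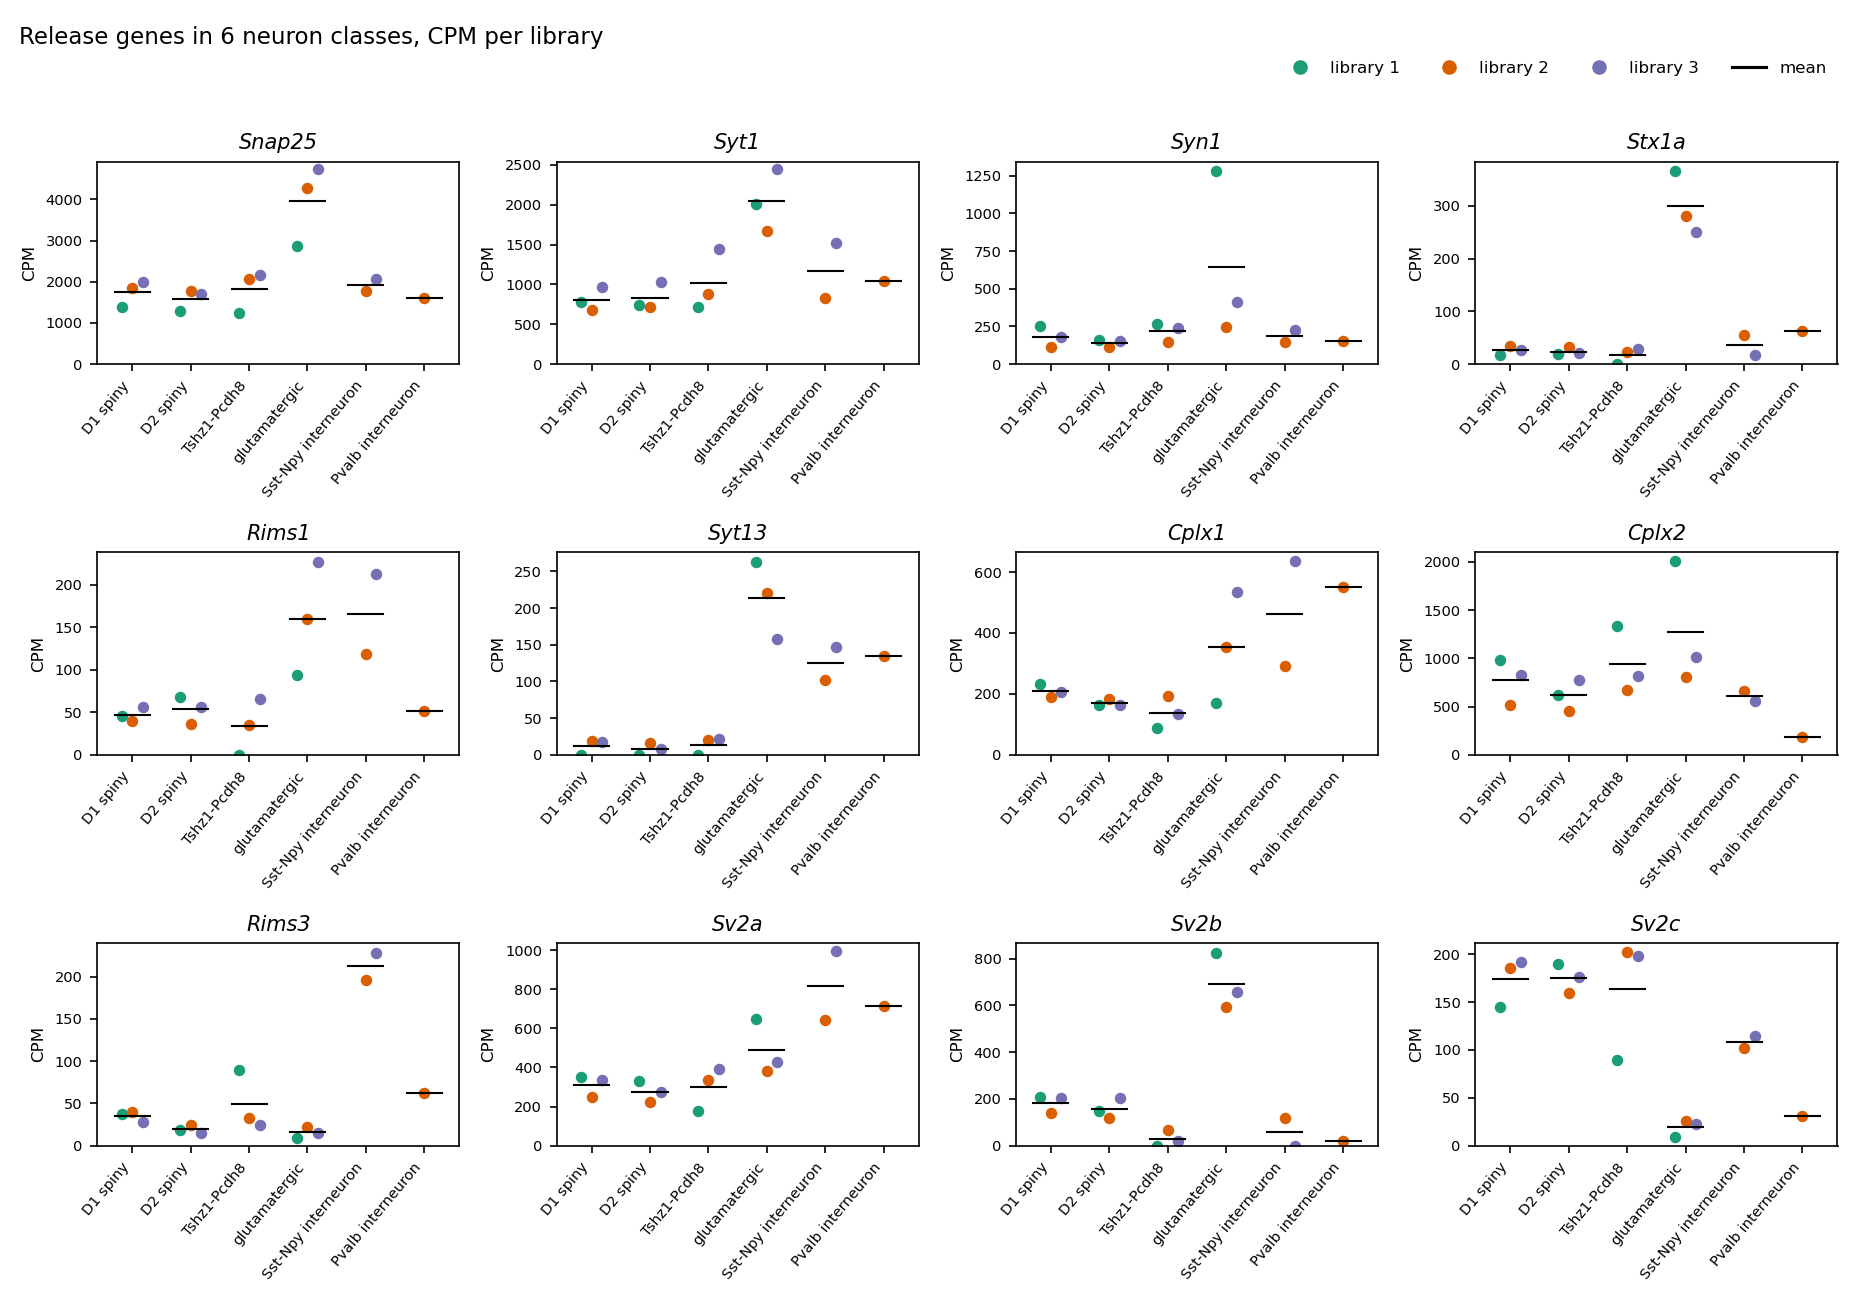
CPM of 12 release genes in 6 neuron classes (horizontal axis), 1 point per library and a line at the mean. Stx1a, Syt13 and Sv2b stand highest in glutamatergic neurons, Sv2c is low there, and Rims3 stands highest in Sst-Npy interneurons, at 197 and 229 CPM.

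The 2 interneuron classes, which are local inhibitory cells, rest on few cells. In Sst-Npy interneurons 7 members were higher than in spiny neurons and 1 lower, against 3.25% and 4.48% of all genes. With the size factors of DESeq2 inside edgeR, 70.9% of all calls in this comparison were higher, and with DESeq2 itself 79.3%, against 42.1% with the main scaling. Rims3 was at 197 and 229 CPM in libraries 2 and 3, above all spiny values, and was higher by 2.67 ± 0.40 (log2, SE, adjusted p = 4.89e-08). Syt13 was at 102 and 147 CPM (2.79 ± 0.51, adjusted p = 1.62e-05; 3.59 without library 2), a call lost with the stricter gate (2.66, adjusted p = 0.0769). Cplx3, a complexin best known from retinal ribbon synapses, was at 31.4 and 32.7 CPM from 6 UMIs. In D1 neurons it was at 0, 1.07 and 0 CPM. It is among the 7 called, but it could pass the low-count filter only through classes other than spiny neurons. Only 6 settings, the main one among them, gave it a value, so its call is not taken as support.
Sv2a was at 645 and 996 CPM (1.23 ± 0.30, adjusted p = 0.00160). That call was lost without library 3, without the library block, without the 5% deepest cells and with at least 25 cells per sum. The calls of Rims4, Rims1, Stxbp6 and, as the lower member, Syt5 were each lost without library 2 and without library 3. Without library 2 there were 4 calls and without library 3 there were 2.

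The Pvalb sum comes from library 2 alone, and its error is borrowed from the other classes. In that sum 2 members were higher and 5 lower than in spiny neurons, against 2.01% and 2.63% of all genes, and DESeq2 called 0, with 79.6% of all calls higher under DESeq2 and 63.7% under its size factors in edgeR, against 43.3%. At an unadjusted p under 0.05 edgeR gave 10 members, beside 14.5% of all genes, and DESeq2 gave 8, beside 12.5%, so both counts are near those of all genes. Syt13 was at 135 CPM (2.94 ± 0.66, adjusted p = 0.00107) and Sv2a at 717 CPM (1.25 ± 0.40, adjusted p = 0.0447; lost without library 3). Syt5 and Syt6 had 0 UMIs and were at least 6.41-fold and 3.76-fold lower than in spiny neurons. Sv2c was at 31.2 CPM, and Sv2b (20.8 CPM) and Cplx2 (187 CPM) lost their calls without library 1. Sums of 5 to 9 cells in libraries 1 and 3 gave Cplx1 levels of 1594 and 1043 CPM beside 551 CPM in library 2, and Cplx2 levels of 435, 187 and 184 CPM in libraries 1 to 3.

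Tshz1-Pcdh8 neurons had markers of both spiny lists. Drd1 was at 533 CPM (706 CPM in D1 neurons) and Tac1 at 2414 CPM (2254 CPM). Pdyn was at 259 CPM (635 CPM) and Isl1 at 14.9 CPM (85.6 CPM). Of the D2 list, Penk was at 2302 CPM (669 CPM in D1 neurons) and Adora2a at 2.49 CPM. The stricter gate kept 58 of the 280 cells. The class differed from D1 neurons in 1 member, with 0 higher and 1 lower, against 0.584% and 0.720% of all genes. At an unadjusted p under 0.05 both edgeR and DESeq2 gave 5 members, beside 7.29% and 4.77% of all genes. Of all calls 75.0% were higher under DESeq2 and 64.2% under its size factors in edgeR, against 44.8%. Sv2b was at 0, 64.8 and 18.6 CPM against 207, 138 and 204 CPM in D1 neurons, lower in each library, with a log2 difference of -2.28 ± 0.47 (SE, adjusted p = 0.00209). The call was lost without library 1 (-2.02, adjusted p = 0.0861), without library 3 (-1.62, adjusted p = 0.551), without the library block and with DESeq2, and the difference was -3.73 without library 2. Library 1 held 12 of these cells.

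The share of each family's UMIs held by a paralogue gives the pattern within a class and is given as a description without a test. A tag marks a molecule whatever its length, but capture may differ between genes. Sv2b held 58.0% ± 1.98 (SD, n = 3 libraries) of SV2 UMIs in glutamatergic, 27.2% ± 2.71 in D1 and 4.62% ± 5.56 in Tshz1-Pcdh8 neurons. Sv2c held 26.5% ± 5.98 in D1, 29.0% ± 2.52 in D2 and 1.75% ± 1.01 in glutamatergic neurons. Sv2a held 74.5% and 89.7% of SV2 UMIs in Sst-Npy cells. Cplx1 held 74.6% of complexin UMIs in the Pvalb sum (53 of 71 UMIs, exact 95% interval 62.9% to 84.2%, counting error only) and 22.0% ± 4.28 in D1 neurons. These shares were chosen after the values were seen.

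**Figure D3:**
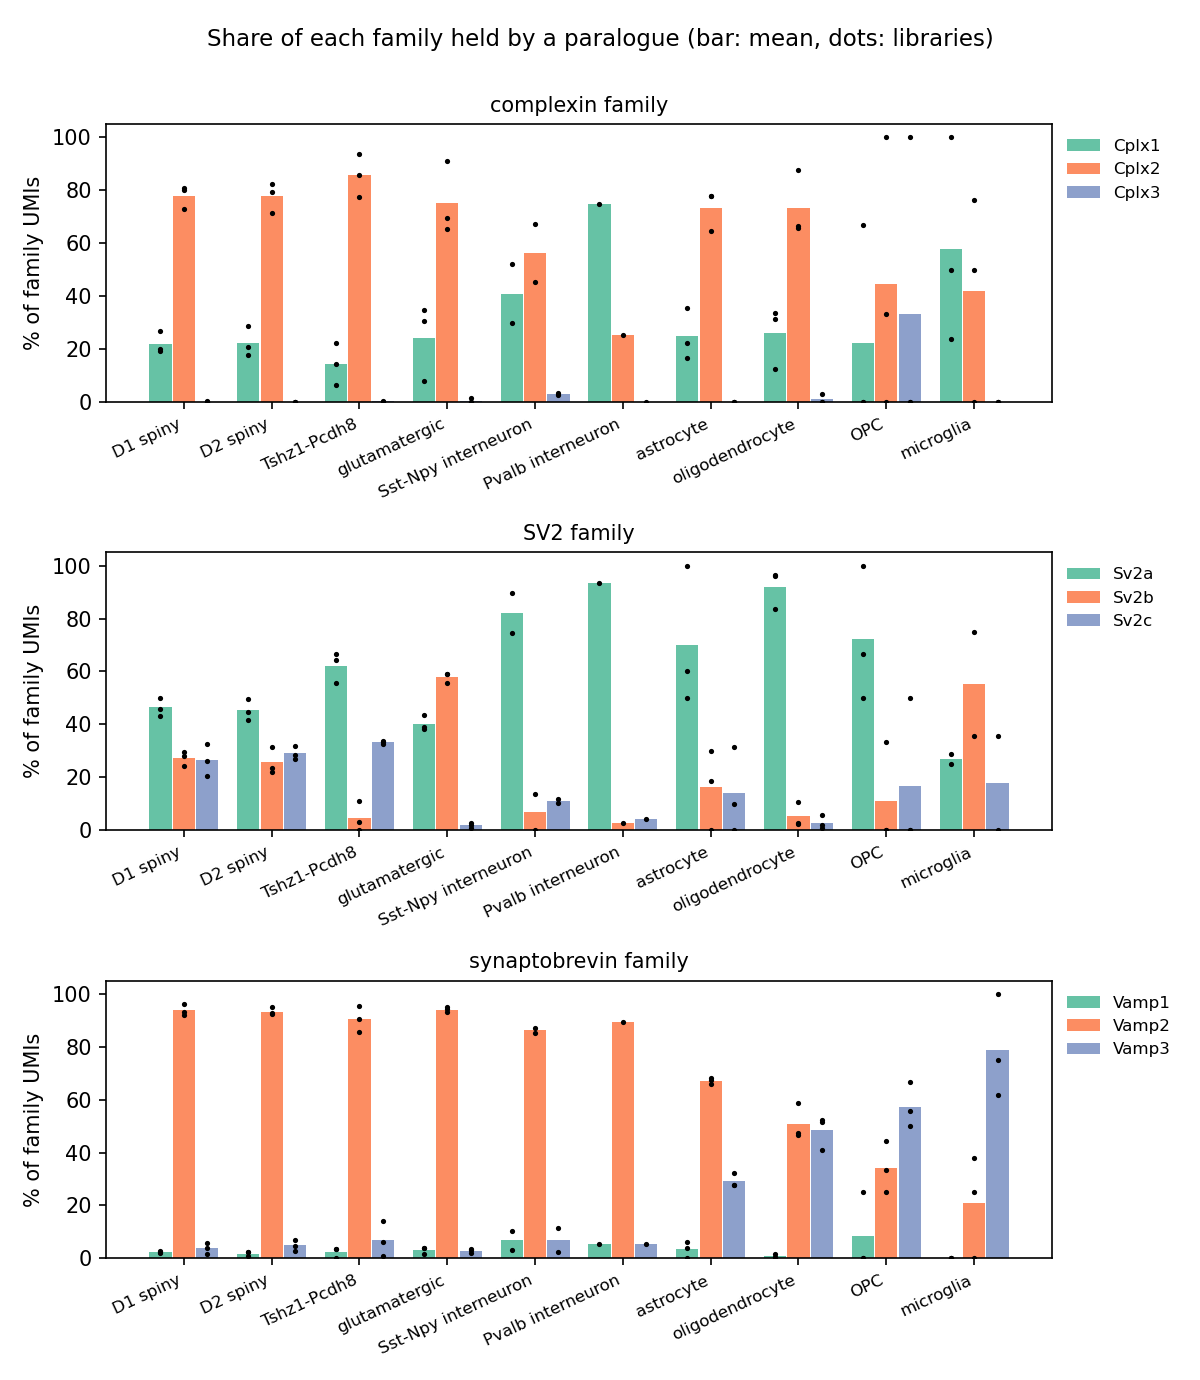
Percent of a family's UMIs held by each paralogue (bars, mean; dots, libraries) in neuron classes and glia, for the complexin, SV2 and synaptobrevin families. Sv2b takes a larger share in glutamatergic neurons than in D1 neurons, and Vamp3 takes 48.4% in oligodendrocytes.

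Glia carried fewer release transcripts, in a different mix. All 65 members summed to 2755, 3475 and 3209 CPM in oligodendrocytes and to 1452, 2537 and 2091 CPM in astrocytes. Oligodendrocytes, the myelinating glia, had 14 members higher and 0 lower than the mean of the other 3 glial classes, against 19.2% and 6.47% of all genes. At an unadjusted p under 0.05 there were 16 of 55 members, beside 34.4% of all genes. DESeq2 called 9 members higher and 1 lower, beside 27.4% of all genes called, of which 35.6% were higher. With DESeq2's size factors in edgeR there were 9 calls, and 48.1% of all calls were higher, against 74.8% with the main scaling.
Sv2a was at 243, 162 and 231 CPM in oligodendrocytes and at 9.63, 25.4 and 21.7 CPM in astrocytes, with no overlap, and was higher by 3.43 ± 0.32 (log2, SE, adjusted p = 4.43e-19). This was 68.8% to 76.1% of the spiny level, beside 1.24% to 6.86% for the spiny reference genes. Sv2a held 92.0% ± 7.38 of SV2 UMIs there. Syt11, a synaptotagmin that does not bind calcium, was at 1031, 828 and 1160 CPM, above every D1 value, and was higher by 2.38 ± 0.24 (adjusted p = 8.48e-17). Stxbp3 was at 121, 166 and 167 CPM (2.78 ± 0.38, adjusted p = 1.78e-10; 4.14 without library 3) and Stx4a at 121, 119 and 98.1 CPM (2.26 ± 0.40, adjusted p = 1.27e-06; 3.93 without library 3). Stx6, a Golgi and endosome syntaxin, was higher by 1.95 ± 0.32 (adjusted p = 1.44e-07). Vamp3 (1.67 ± 0.27, adjusted p = 1.15e-07) and Vamp2 (1.89 ± 0.31, adjusted p = 1.01e-07) were both higher, and Vamp3 held 48.4% ± 6.27 of synaptobrevin UMIs, against 3.73% ± 2.13 in D1 neurons. Stxbp6 and Vamp7 were also called. The calls of Stxbp2, Stx7, Stx12, Stx18 and Vamp5 were lost when at least 1 library was left out, and without library 3 the calls fell from 14 to 9.

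Astrocytes had 4 members higher and 3 lower than the other glia, against 20.6% and 3.84% of all genes. Of all calls 68.1% were higher under DESeq2, against 84.3%. Stxbp3 was at 57.8, 110 and 97.6 CPM (1.58 ± 0.44, adjusted p = 0.00279; 2.97 without library 3). Syt12 was at 11.6, 9.37 and 9.04 CPM in astrocytes and had 0 UMIs in OPCs and microglia. The lower Stx16 (-1.27 ± 0.35, adjusted p = 0.00223) was at 32.7, 24.1 and 28.9 CPM, and its call was lost among cells of at least 1000 UMIs (-0.92, adjusted p = 0.0712). The calls of Cplx2, Vamp2, Vamp3 and Sv2a were each lost on leaving out a library, and without library 3 the 7 calls fell to 3 and without library 2 to 4.

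OPC sums rest on 15, 32 and 18 cells. In them 1 member was higher and 4 lower than in the other glia, against 4.28% and 4.82% of all genes, with 83.4% of all calls higher under DESeq2, 74.3% under its size factors in edgeR and 47.0% under the main scaling. Vamp8, Stxbp3 and Stx4a were each at 0 CPM in 2 of 3 OPC libraries. Their calls and those of Vamp5 and Syt16 are thus from 1 to 4 UMIs, and without library 2 or library 3 there were 3 calls. Syt11 was abundant in OPCs, at 689, 733 and 756 CPM.

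Microglia, the resident phagocytes, had 3 members higher and 5 lower, against 12.3% and 9.62% of all genes. Vamp8 was at 608, 379 and 336 CPM in microglia against 100.1, 97.7 and 90.4 CPM in astrocytes and 8.27, 15.5 and 9.61 CPM in D1 neurons, and was higher than in the other glia by 3.32 ± 0.33 (log2, SE, adjusted p = 5.22e-17; 5.14 without library 2). Syt11 was at 0, 84.1 and 71.3 CPM, lower with a log2 difference of -3.40 ± 0.38 (adjusted p = 4.54e-14). Stx16 was at 65.8, 156 and 163 CPM (1.49 ± 0.35, adjusted p = 0.000412), lost without library 3. The calls of Stxbp2, Sv2a, Vamp2, Stxbp6 and Vamp7 were each lost without at least 1 library, and there were 5 calls without library 1 and 2 without library 3. Vamp8 was also high in MHC-II macrophages (474, 336 and 307 CPM) and endothelial cells (354, 289.6 and 294 CPM), and Snap23 held 48.7% ± 13.3 of SNAP-25 family UMIs in the macrophages.

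**Figure D4:**
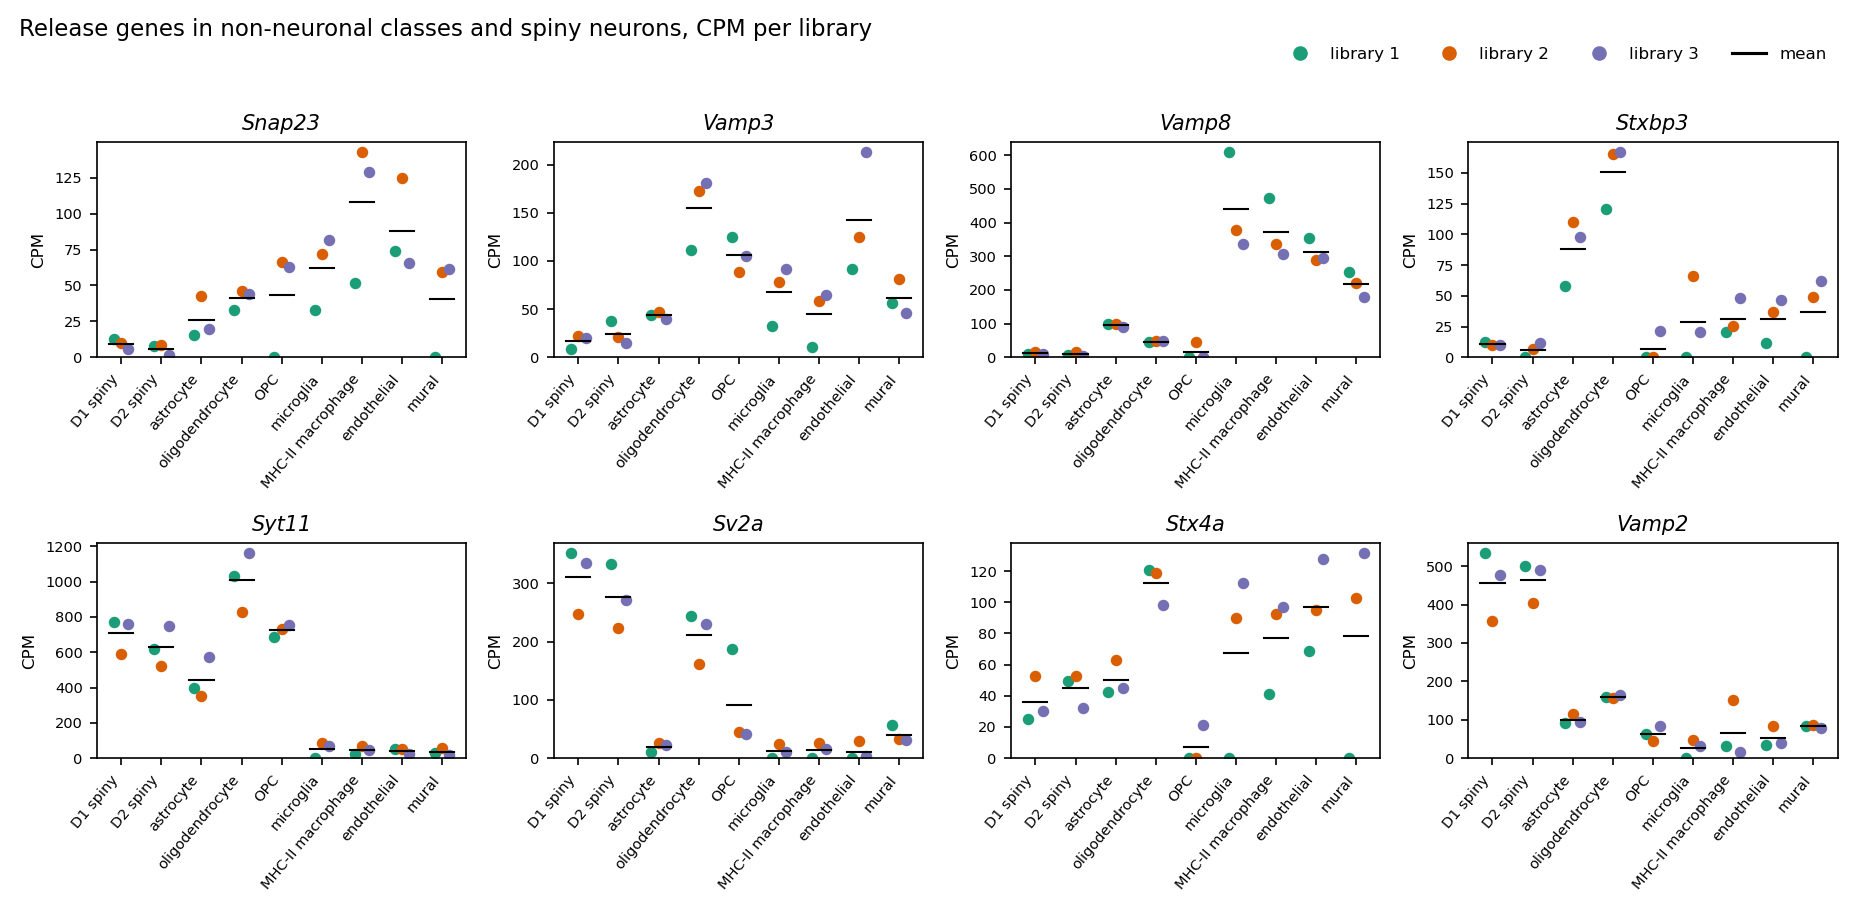
CPM of 8 release genes in spiny neurons and 7 non-neuronal classes (horizontal axis), 1 point per library and a line at the mean. Vamp8 is highest in microglia, and Syt11, Stxbp3 and Stx4a are highest in oligodendrocytes among these classes.

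Stx19 had 0 UMIs. Classes were ranked where sums came from at least 2 libraries, which leaves out the Pvalb class. Of the other 64 members, 41 had their highest level in a neuron class and 23 in another class. Some of these ranks rest on few UMIs. Syt8 had 1 UMI and Cplx4 had 2 UMIs in all kept cells. The fibroblast class, highest for Syn3 at 18.1 CPM, held 41910 UMIs. With Stx19, 7 members stayed under 20 CPM in every class so ranked. Syt14, 1 of them, was at 20.8 CPM in the Pvalb sum, from 2 UMIs.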

How the data were processed

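The libraries were 10x Genomics 3′ v2 single-cell libraries, as the labels state, and the authors processed them with Cell Ranger 3.0 on mm10, per the submitters' processing notes. The authors deposited raw UMI counts in 1 pooled matrix of 28001 features by 11625 cells. Barcode suffixes separate the 3 libraries. No label links a suffix to a sample, so library numbers are only names.

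Cells were required to have 300 or more genes and no more than 20% of UMIs from mitochondrial genes. A class needed at least 3 of its markers, 2 more than any other list, and at most 2 markers of another list. A neuron subtype needed at least 2 markers, and 3 times the UMIs of any other neuron list with more than 1 marker; the Tshz1-Pcdh8 gate may also hold D1 markers. Of 10291 cells, 7962 were gated, 1182 of them as neurons of no subtype. The gating rule was set after the data were seen: several versions were tried with class sizes, and for 1 version the members' levels, in view. No doublet caller was run. Cells with more than 2 markers of a second class were left out, but those with up to 2 could be kept. Neurons with markers of a second subtype could be kept under the UMI rule, so mixed cells may remain. Drd1a, Gpr52 and Trbc2, listed as markers, did not match a symbol.

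Counts were summed per library and class (at least 10 cells). All classes were fitted together with edgeR 4.0.16 (quasi-likelihood, robust prior, TMM, filterByExpr) in R 4.3.3, with library as a block because the classes come from the same libraries, and Benjamini-Hochberg adjustment over 10968 genes at 0.05. SE is the log2 difference divided by the square root of F. The fit was run on simulated counts for D1 over D2 only, with a fixed dispersion and no library effect. That run does not cover the other comparisons, such as those of the small interneuron and OPC sums. Alternatives, DESeq2 1.42.0 among them, are given in the closing section. The members and gene lists were chosen with earlier results of these data known. In each comparison up to 6 members per direction (3 for the further presynaptic genes) were to be named, those with the largest log2 difference among genes with an adjusted p under 0.05 and the same direction in every library, and in addition core fusion genes and widely expressed paralogues. Other members were named after their values were seen. Some genes that the rule names are not reported here or drawn in the figures, but they stay in the fits and counts.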

Additional observations from a re-analysis of the deposited data

How the results depend on the processing

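Of 1524 log2 differences of single members recomputed under the alternatives, 1276 kept their side of the threshold, 245 were no longer past it, 3 newly passed and none changed sign. These are the differences that passed the test, plus Syt7, Rims3 and Syt6 between D1 and D2. A further 154 differences of core members that passed no test were set apart after their values were seen: 82 of them changed sign under at least 1 alternative, and 16 passed the threshold under at least 1. The count of members called for spiny neurons over glia (40) stayed within 1.5 times under every alternative run.

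Without the replicate block (library), the calls were 8 for glutamatergic neurons (20 with it), 5 for Sst-Npy (8), 2 for Pvalb (7), 0 for Tshz1-Pcdh8 (1), 4 for astrocytes (7) and 9 for oligodendrocytes (14). With DESeq2 they were 0 for Pvalb, 0 for Tshz1-Pcdh8, 2 for OPCs (5) and 5 for microglia (8). With DESeq2's size factors in edgeR they were 4 for Pvalb and 9 for oligodendrocytes. Fitting only the classes compared gave 3 for D1 over D2 (0) and 3 for OPCs. The stricter gate gave 4 for Sst-Npy, 3 for Pvalb and 3 for OPCs, and moved the Sv2b share of SV2 UMIs in D1 neurons from 27.2% to 30.7%. Cells of at least 1000 UMIs gave 4 for astrocytes, 3 for OPCs and 5 for microglia. Leaving out the 5% deepest cells gave 4 for Sst-Npy, 4 for Pvalb and 4 for astrocytes. Sums of at least 25 cells gave 4 for Sst-Npy, 3 for astrocytes, 0 for OPCs and 5 for microglia. Leaving out each library in turn gave 12 to 21 calls for glutamatergic neurons, 2 to 8 for Sst-Npy, 0 to 1 for Tshz1-Pcdh8, 3 to 5 for astrocytes, 9 to 10 for oligodendrocytes, 3 to 4 for OPCs and 2 to 7 for microglia. Fewer sums or cells entered the fits where libraries or cells were left out. What lies behind these changes was not tested. The Pvalb comparison gave no value without library 2 or with at least 25 cells per sum. The sums of at least 5 cells were added after the data were seen.

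DESeq2's size factors moved the median log2 difference of all genes from -0.40 to -0.03 for Sst-Npy, -0.48 to -0.27 for Pvalb, -0.19 to -0.04 for Tshz1-Pcdh8, 0.29 to -0.14 for oligodendrocytes, -0.48 to -0.02 for OPCs, 0.25 to 0.43 for spiny neurons over glia, 0.39 to 0.25 for astrocytes and -0.23 to -0.10 for microglia. The smallest sums tested held 11228 UMIs (Tshz1-Pcdh8, library 1) and 15975 UMIs (OPCs, library 1), which limits what could be detected in them.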
